A study of Mus musculus with 6 samples.

Results

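The miR-30 family was followed through small RNA libraries of mouse hearts that had lost the tRNA-processing enzyme ELAC2 and of control hearts. Its members were the 6 genes of the count table named Mir30a, Mir30b, Mir30c-1, Mir30c-2, Mir30d and Mir30e, out of 30638 features, of which 2207 are annotated as miRNA genes. Small RNA was counted in whole hearts of 6 C57BL/6 mice, 1 library per mouse. The 3 control mice are titled L/L (genotype label Elac2 +/+), with an Elac2 exon flanked by loxP sites and no cre, and the 3 knockout mice are titled L/L, cre (genotype label Elac2 -/-), with the same floxed alleles and a cre driven by the muscle creatine kinase promoter. That promoter is active in striated muscle cells, so the floxed exon is not expected to be cut in the other cell types of these hearts. The sources used here do not give the age or sex of the mice. No check of the genotypes on Elac2 mRNA was made, as it was not analysed here.

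MicroRNAs are cut from hairpin precursors by Drosha and Dicer, and the mature strand guides Argonaute to messenger RNAs that pair with its seed. Members of the miR-30 family share a seed and therefore overlap in their targets. They are abundant in cardiomyocytes, where they are known for restraining connective tissue growth factor, and they fall in several forms of heart disease. ELAC2 itself, known as RNase Z, trims the 3′ trailer of nuclear and mitochondrial precursor tRNAs and has no established part in the usual route of miRNA maturation.

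The 6 genes form 3 pairs in the genome (GRCm38, from GENCODE M21). Mir30a (chromosome 1, 23272269 to 23272339) and Mir30c-2 (23291701 to 23291784) lie on the plus strand 19361 nt apart. Mir30c-1 (chromosome 4, 120769534 to 120769622) and Mir30e (120772606 to 120772697) lie 2983 nt apart on the minus strand, in introns of Nfyc, which encodes a subunit of the transcription factor NF-Y. Mir30b (chromosome 15, 68337415 to 68337510) and Mir30d (68341208 to 68341289) lie on the minus strand 3697 nt apart.

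The RefSeq miRNA table (GRCm38.p6) held 4 of the 6 members, Mir30a, Mir30c-1, Mir30c-2 and Mir30e. Their 5′ arms are shown because they decide which reads can be told apart, with the seed (bases 2 to 8) in capitals and miR-384-5p as the one other mature miRNA of the table with that seed.
miR-30a-5p: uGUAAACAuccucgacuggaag
miR-30e-5p: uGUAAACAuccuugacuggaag
miR-30c-5p: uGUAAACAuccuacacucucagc
miR-384-5p: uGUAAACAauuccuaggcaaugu
Of 1679 distinct mature miRNA names in that table, 4 carry this seed (0.238%). Counted from the 5′ end, miR-30a-5p and miR-30e-5p differ by C13U alone, and miR-30c-5p departs from miR-30a-5p at 5 of 22 positions, the first of them C13A. The 3′ arms have other seeds, one for Mir30a and Mir30e and one for Mir30c-1 and Mir30c-2.
miR-30a-3p: cUUUCAGUcggauguuugcagc
miR-30e-3p: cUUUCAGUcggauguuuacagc
miR-30c-1-3p: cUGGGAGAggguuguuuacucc
miR-30c-2-3p: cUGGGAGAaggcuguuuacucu
The 3′ arms of Mir30a and Mir30e differ by G18A and those of Mir30c-1 and Mir30c-2 at 3 positions. The table gives 1 count per gene, which does not separate the arms, and reads of near-identical arms may have been split between genes, so the single genes of the family are uncertain to that extent.

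Mir30c-1 and Mir30c-2 carry the same 5′ arm. Their hairpins are shown with the mature arms in capitals, since only the lower-case parts and the 3′ arms distinguish the loci.
Mir30c-1 (chr4:120769534-120769622, minus strand): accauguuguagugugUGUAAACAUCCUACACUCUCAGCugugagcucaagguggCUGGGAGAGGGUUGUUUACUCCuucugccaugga
Mir30c-2 (chr1:23291701-23291784, plus strand): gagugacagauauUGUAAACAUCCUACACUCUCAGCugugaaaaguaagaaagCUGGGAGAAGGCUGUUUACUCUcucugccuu
Reads of miR-30c-5p cannot be assigned to either locus by sequence, and counts given for Mir30c-1 are therefore counts of a product that both loci can make.

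Counts were found for 4 of the 6 genes, and Mir30c-2 and Mir30d were listed at 0 in all 6 libraries. Mir30c-2 lies with all 84 nt of its hairpin inside an exon of the long non-coding RNA gene Gm27028 on the same strand, and Mir30d lies with all 82 nt inside an exon of Gm20732 on the same strand, both of them counted features of the same table. These host features held 3 and 36 counts in the 6 libraries together. The same was seen across the table: all 92 miRNA genes that lie wholly inside a same-strand exon of another counted feature were at 0 in every library (100%, exact 95% binomial interval 96.1% to 100%). Of the 1965 miRNA genes that no exon of another counted feature overlaps on either strand, 1176 were at 0 (59.8%, interval 57.6% to 62.0%). A count of 0 allows up to 3 counts, here 0.185 to 0.222 counts per 1e6 counts of a library, but at these loci it limits the assigned reads and not the RNA. The zeros of Mir30c-2 and Mir30d are thus no measurement of their expression, and the clusters on chromosomes 1 and 15 are each represented by 1 gene, Mir30a and Mir30b.

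**Figure D1:**
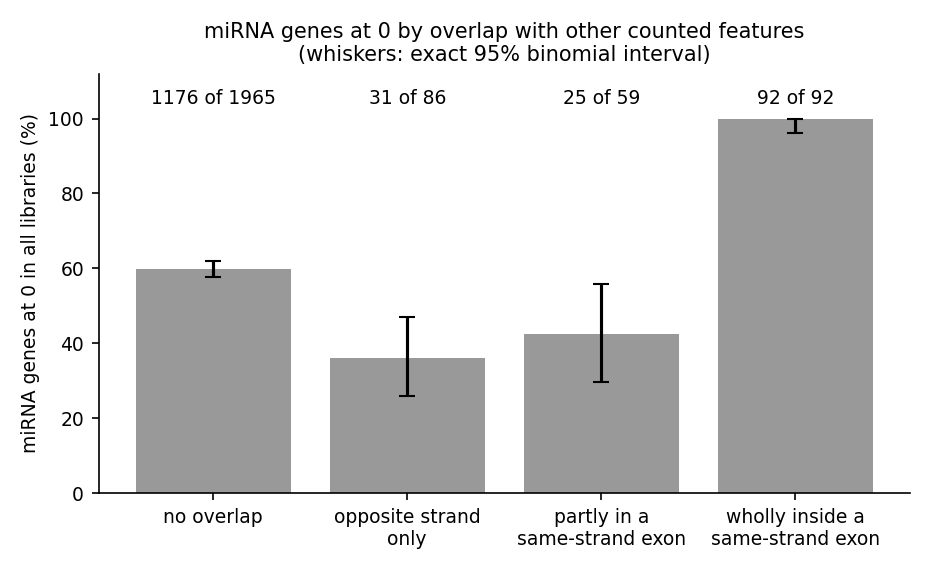
Share of miRNA genes with 0 counts in all 6 libraries (y axis, percent) by their overlap with exons of other counted features (x axis), with exact 95% binomial intervals and the number of genes above each bar. All 92 genes wholly inside a same-strand exon, Mir30c-2 and Mir30d among them, were at 0, against 59.8% of genes without an overlap.

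Mir30b has a partial overlap: 16 of its 96 nt lie in an exon of Gm26621 on the same strand, and reads from that end may be missing. Mir30e shares its whole interval with Mir30f on the opposite strand, a gene that held 5 counts in all against 207439 for Mir30e, so nearly all counts at this locus were given to Mir30e. The mature miR-30f does not have the miR-30 seed. Mir384, the other gene with the seed, held 6 counts in all libraries together and did not pass the filter on low counts.

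Libraries held 13510061 to 16248673 counts, of which miRNA genes took 39.5% to 43.4% in control and 29.2% to 33.3% in knockout hearts. The 4 genes with counts had between 1807 and 158545 counts per library. Because whole hearts were used, fewer cells of a type and less RNA per cell cannot be told apart in any value below. The label of the family as cardiomyocyte-rich is background from the literature and could not be checked in unsorted tissue. Levels are given as counts per 1e6 counts after scaling by TMM factors (CPM), and changes as log2 fold changes from edgeR's quasi-likelihood test over 1144 features, with p adjusted over all of them by the Benjamini-Hochberg method and called below 0.05.

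Mir30e and Mir30c-1, the pair assigned to chromosome 4, were called lower in knockout hearts, while Mir30a and Mir30b were not called. The Mir30c-1 counts may include reads from Mir30c-2 on chromosome 1, and its call was lost with any knockout library left out. Of the 4 genes tested, 2 were lower and 0 higher, against 27.0% of all 1144 features and 6.41% of the 312 miRNA genes tested that were called lower, and 23.2% and 17.0% called higher. The median log2 fold change of the 4 genes was -0.45, beside -0.012 over all features and 0.21 over miRNA genes. In 3 of the 4 genes every knockout library lay below every control library, a pattern that 33.7% of all features and 12.8% of miRNA genes showed. In either direction, the groups did not overlap for 63.0% of all features and 41.7% of miRNA genes.

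Mir30e changed most. Its level was 3115, 2658 and 2816 CPM in control replicates 1 to 3 and 1406, 1568 and 1627 CPM in knockout replicates 1 to 3. The knockout libraries lay close together and all well below the lowest control library. The mean went from 2863 ± 232 to 1534 ± 114 CPM (SD, n = 3), which is 1.87 times lower (-0.90 on the log2 scale, SE 0.15, adjusted p = 0.000310). The call was made with each library left out in turn, with log2 fold changes from -0.99 to -0.63.

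Mir30c-1, its neighbour in Nfyc, moved the same way by less. Control replicates 1 to 3 had 3001, 3377 and 2733 CPM, and knockout replicates 1 to 3 had 2004, 1886 and 2187 CPM. The groups did not overlap, and the highest control value was in replicate 2, the library in which Mir30e was lowest among controls. The mean went from 3037 ± 323 to 2026 ± 152 CPM (SD, n = 3), a change of -0.58 on the log2 scale with an adjusted p of 0.00576 (SE 0.15). The call was lost with any knockout library left out: the change was -0.35 without replicate 1 (adjusted p = 0.190), -0.29 without replicate 2 (adjusted p = 0.347) and -0.45 without replicate 3 (adjusted p = 0.106). Leaving out any of these libraries also changed the scaling factors and moved the fold changes of the same genes upward by a median of 0.21 to 0.24. The filter then passed 1389 to 1405 features in place of 1144. Minus the median of miRNA genes in the same fit, the Mir30c-1 change was -0.79, -0.73 and -0.80 without knockout replicates 1, 2 and 3. With all libraries it was -0.80.

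Mir30a, the most abundant member and the only one of the chromosome 1 pair with counts, had 7348, 8931 and 6845 CPM in control hearts and 5448, 6540 and 6618 CPM in knockout hearts, in the order of the replicates. The highest knockout library lay just below the lowest control library. Its mean went from 7708 ± 1089 to 6202 ± 654 CPM (SD, n = 3), with a log2 fold change of -0.31 that was not called (SE 0.15, adjusted p = 0.0974). Scaled by factors from miRNA genes alone, which sets each miRNA against the others, Mir30a was called lower (log2 fold change -0.51, adjusted p = 0.0243), as were Mir30c-1 (-0.77, adjusted p = 0.00244) and Mir30e (-1.08, adjusted p = 0.000196). With these factors 12.2% of miRNA genes were called lower.

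Mir30b, the least abundant member with counts, was the only tested member with a positive log2 fold change. That change was near the median of miRNA genes (0.21), and its sign depended on the scaling (-0.12 with total counts alone). Mir30b had 117, 247 and 125 CPM in the control libraries, against 159, 187 and 222 CPM in the knockout libraries. Control replicate 2 was above every knockout library and the other control libraries were below all of them, so the groups overlapped. The difference was 0.22 on the log2 scale (adjusted p = 0.538, SE 0.28). Without control replicate 2 it was 0.61 and was called higher (adjusted p = 0.0335).

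**Figure D2:**
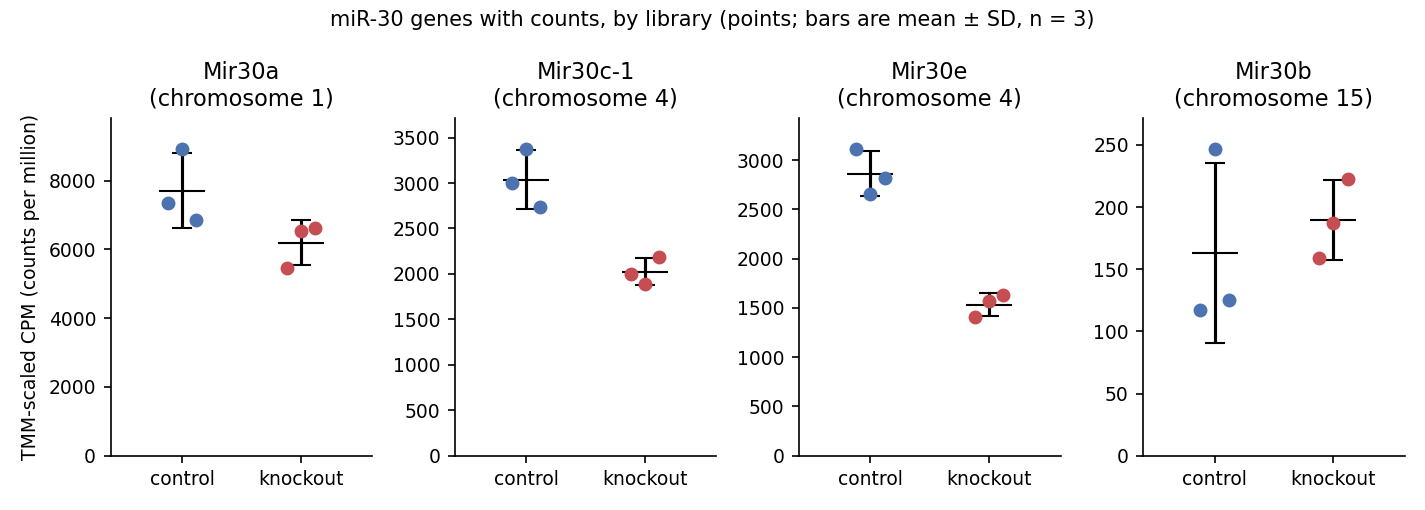
TMM-scaled CPM (y axes, each from 0) of the 4 miR-30 genes with counts in 3 control and 3 knockout libraries (points), with mean ± SD. Mir30c-1, Mir30e and Mir30a lie lower in every knockout library, and Mir30b overlaps, with control replicate 2 the highest at 247 CPM.

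Per 100 nt of hairpin, the order of the levels in control hearts was Mir30a (10856 ± 1533 CPM per 100 nt; SD, n = 3), Mir30c-1 (3412 ± 363), Mir30e (3112 ± 252) and Mir30b (170 ± 75.7). The order of the mean CPM was the same. Hairpins of these genes measure 71 to 96 nt, while the miR-30 mature arms shown above measure 22 or 23 nt. Division by hairpin length therefore does not make the genes more comparable than CPM. Mir30c-1 and Mir30e overlapped in control hearts. The order was the same in knockout hearts, with 8735 ± 922, 2276 ± 170, 1667 ± 124 and 197 ± 33.3 CPM per 100 nt, and there each Mir30c-1 value was above each Mir30e value.

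The calls depended on how libraries were scaled. With factors from snRNA and nuclear rRNA genes, which moved the median over all features by 0.55, none of the 4 genes was called by edgeR (0 of 4 with an unadjusted p below 0.05, where 1.28% of miRNA genes were called lower): Mir30e changed by -0.35 on the log2 scale (adjusted p = 0.331), Mir30c-1 -0.024 (adjusted p = 0.961), Mir30a 0.25 (adjusted p = 0.527) and Mir30b 0.81 (adjusted p = 0.0852). The calls of Mir30e (-0.55, adjusted p = 0.0800) and Mir30c-1 (-0.22, adjusted p = 0.554) were also lost when no filter on low counts was used.

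**Figure D3:**
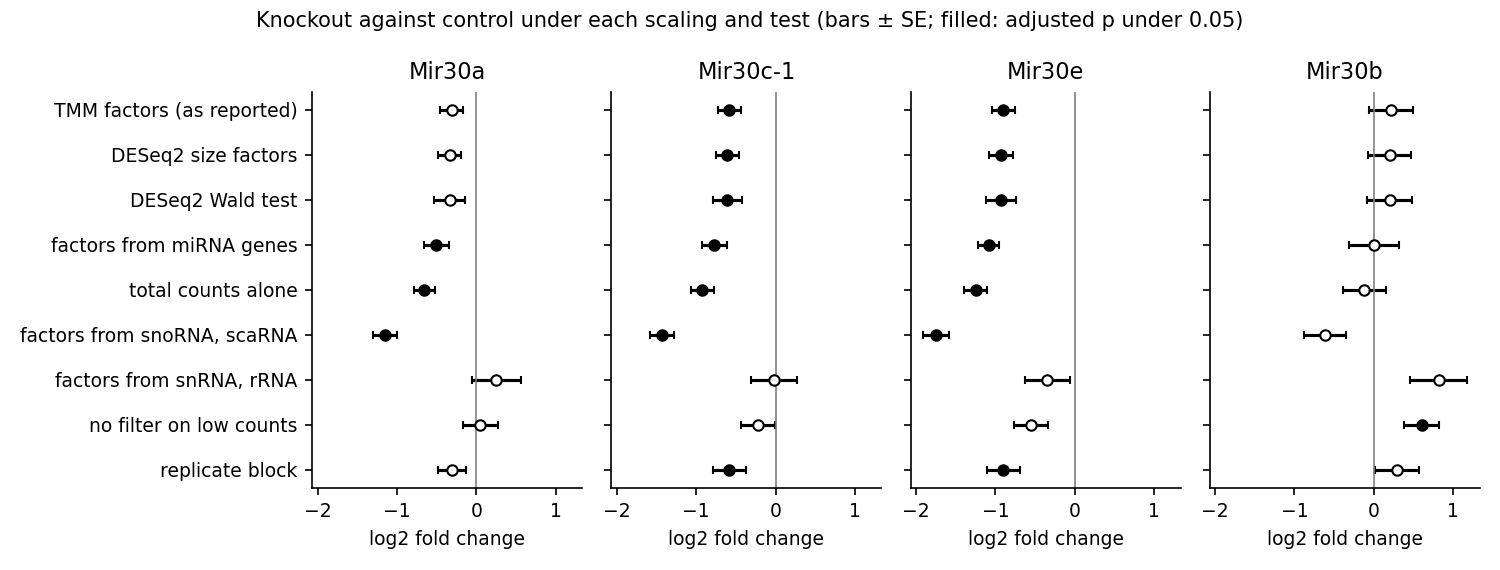
Log2 fold change of knockout against control (x axis, ± SE) for each of the 4 genes under 9 scalings, tests or filters (rows), with filled points where the adjusted p was below 0.05. A change of scaling shifts the 4 genes of a row together by construction, so their order across a row is no separate result.

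Ratios between members within a library do not depend on that scaling. Of the 15 pairs of the 6 genes, 6 had counts on both sides. Mir30a outnumbered Mir30e 2.36, 3.36 and 2.43 times in the control libraries, and 3.87, 4.17 and 4.07 times in the knockout libraries, so every knockout ratio was higher. Mir30a outnumbered Mir30c-1 2.45, 2.64 and 2.50 times in the control libraries, and 2.72, 3.47 and 3.03 times in the knockout libraries, again without overlap. The mean log2 ratio was 0.59 higher against Mir30e and 0.27 higher against Mir30c-1 in knockout hearts, with exact two-sided permutation p = 0.1 for each, the smallest p that 3 against 3 libraries allow, and 0.12 after Benjamini-Hochberg adjustment over the 6 pairs.

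Ratios of Mir30b to each other member were higher in every knockout library than in any control library. There were 0.0377, 0.0929 and 0.0443 Mir30b counts per Mir30e count in the control libraries, against 0.113, 0.119 and 0.137 in the knockout libraries, a difference in log2 ratio of 1.19. Against Mir30c-1 the difference was 0.87, and in the log2 ratio of Mir30a to Mir30b it was -0.60, both without overlap (exact permutation p = 0.1 for each of these 3 pairs, adjusted p = 0.12). Within the Nfyc pair the ratio of Mir30c-1 to Mir30e was 0.964, 1.27 and 0.970 in the control libraries, against 1.42, 1.20 and 1.34 in the knockout libraries. Control replicate 2 fell among the knockout values, and the exact permutation p was 0.2, also after adjustment. Groups were thus separate in 5 of 6 pairs, 3 of which include Mir30b. These are the pairs of genes assigned to different clusters, although the Mir30c-1 counts may include reads from Mir30c-2 on chromosome 1. The 6 ratios are formed from 4 genes and are not independent of each other, and no share of other gene pairs was computed to set beside this count.

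By cluster, the share of miR-30 counts assigned to chromosome 4 was 45.0%, 39.7% and 44.3% in the control libraries, against 37.8%, 33.9% and 35.8% in the knockout libraries. The share assigned to chromosome 1, all of it Mir30a, was 54.1%, 58.7% and 54.7% against 60.4%, 64.2% and 62.1%. Chromosome 15, all of it Mir30b, gave 0.865%, 1.62% and 0.997% against 1.76%, 1.84% and 2.09%. The 3 shares sum to the whole, so a lower share of one cluster raises the others, and they are 1 result and not 3: Mir30a gained in share while its CPM was lower in every knockout library. The Mir30c-1 counts in the chromosome 4 share may include reads from Mir30c-2 on chromosome 1. With both miR-30c loci left out, the chromosome 4 share, then Mir30e alone, differed by -7.50 percentage points between knockout and control, beside -7.16 with them. Of all miR-30 counts, the share of Mir30e was 22.9%, 17.5% and 22.5% against 15.6%, 15.4% and 15.3%, while that of Mir30c-1 was 22.1%, 22.2% and 21.8% against 22.2%, 18.5% and 20.5% and overlapped.

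**Figure D4:**
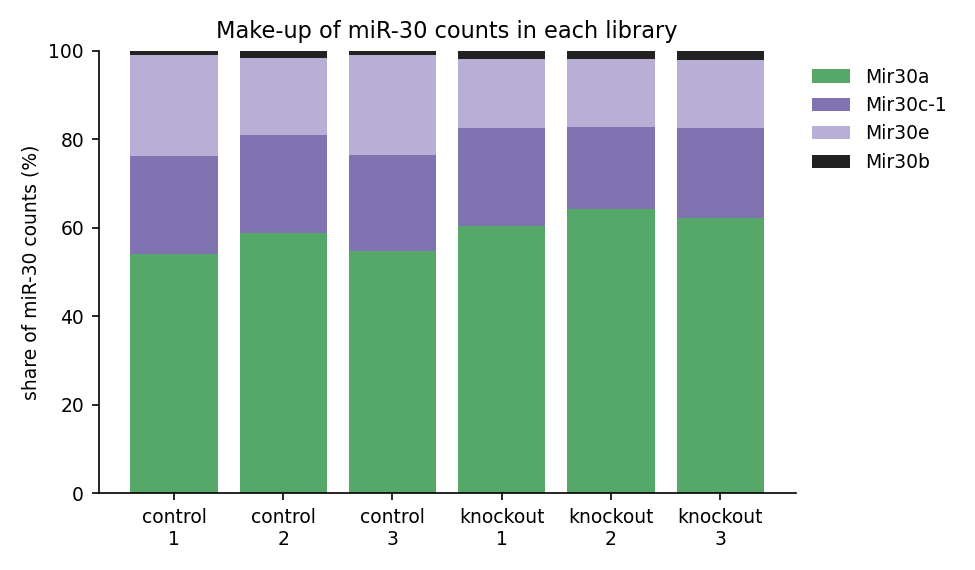
Make-up of the miR-30 counts of each library (y axis, percent) by gene, for 3 control and 3 knockout libraries (x axis). Both shades of purple, the chromosome 4 genes, take 39.7% to 45.0% of control bars and 33.9% to 37.8% of knockout bars.

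Together, the 4 miR-30 genes with counts held a smaller share of the miRNA counts in each knockout library. Mir30c-2 and Mir30d were not measured, so the level of the whole family is not known. The 4 genes held 3.56%, 3.96% and 3.64% of miRNA counts in the control libraries, against 2.93%, 2.67% and 2.84% in the knockout libraries, without overlap. Summed, they came to 13771 ± 1357 CPM in control and 9951 ± 844 CPM in knockout hearts (SD, n = 3). No test was made on these sums.

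Markers of heart cell types among the miRNAs were read beside the family. Of 9 cardiomyocyte and striated muscle miRNA genes, 7 were tested, 2 fell and 1 rose, with Mir133b and Mir206 at 0. Their sum was 117837 to 148037 CPM in control and 72669 to 93284 CPM in knockout hearts, nearly all of it from the muscle miRNAs Mir1a-1 and Mir1a-2, so the lower sum is that of these genes. Mir133a-1, Mir133a-2, Mir499 and Mir208a were not called. By name, Mir1a-1 and Mir1a-2 are loci of the same miRNA, with near-equal control means (62248 and 62354 CPM). The same holds for Mir133a-1 and Mir133a-2 (1516 and 1511 CPM), so the genes of each pair are not independent markers. Mir1a-1 (62248 ± 8787 CPM in control and 41794 ± 5672 CPM in knockout hearts; SD, n = 3) and Mir1a-2 both fell, with changes of -0.57 (SE 0.14, adjusted p = 0.00420) and -0.61 (SE 0.13, adjusted p = 0.00183) on the log2 scale. Mir208b, carried in the slow myosin gene, was the one that rose (log2 fold change 0.79, SE 0.29, adjusted p = 0.0399).

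Of 4 fibroblast miRNA genes, 2 were tested and both rose, Mir199a-1 from 738 ± 125 to 1277 ± 39.3 CPM (0.79 on the log2 scale, adjusted p = 0.00183; SD, n = 3) and Mir199b by 0.74 (adjusted p = 0.00402). By name, Mir199a-1 and Mir199b belong to the same miRNA family. Whether their reads were told apart was not tested, so they may not be independent markers. Mir199a-2 and Mir214 were at 0. The fibroblast sum was 1157 to 1628 CPM in control and 2218 to 2346 CPM in knockout hearts. The tested endothelial gene, Mir126a (log2 fold change -0.13, adjusted p = 0.424), was not called, and Mir126b was at 0. The smooth muscle genes Mir143 (-0.20, adjusted p = 0.269) and Mir145a (-0.25, adjusted p = 0.277) were not called either. Of 10 blood and immune genes, 5 were tested, with Mir486 (-0.67, adjusted p = 0.00496) and Mir150 lower and Mir144 higher. The red cell miRNA Mir451a was not called (0.40, adjusted p = 0.258), and Mir155 and Mir223 were at 0. Both Mir155 and Mir223 lie wholly inside a same-strand exon of another counted feature, so their zeros are no measurement of expression. Whether the zeros of Mir133b, Mir206, Mir199a-2, Mir214 and Mir126b measure expression was not tested. The sums overlapped for the endothelial (19531 to 23763 against 17620 to 20972 CPM), smooth muscle (26672 to 33574 against 22072 to 30035 CPM) and blood lists (2770 to 3849 against 2364 to 3115 CPM). The part of cell type shares in the fall of the miR-30 genes was not tested.

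Other miRNAs known to restrain cardiac fibrosis were not called. Of 7 such genes of the miR-29 and miR-133 families, 4 were tested, 0 rose and 0 fell by edgeR, also 0 at an unadjusted p below 0.05, and their median log2 fold change was -0.40. Mir133a-1 (-0.45, SE 0.24, adjusted p = 0.141) and Mir133a-2 (-0.44, SE 0.24, adjusted p = 0.143) overlapped between the groups, as did Mir29b-1. The Mir133a genes are loci of the same miRNA and are not independent of each other. In Mir29a every knockout library was below every control library, with 389, 359 and 352 CPM against 223, 312 and 341 CPM, and its log2 fold change of -0.33 (SE 0.19, adjusted p = 0.179) was close to that of Mir30a. Mir29b-2, Mir29c and Mir133b were at 0. Mir29b-2 and Mir29c lie wholly inside a same-strand exon of another counted feature, so their zeros are no measurement of expression. Whether the zero of Mir133b measures expression was not tested.

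Profiles nearest to that of the summed miR-30 genes with counts were sought over the 6 libraries. The search took in 167 other miRNA genes with at least 10 CPM on average. By Euclidean distance between mean-centred log2 CPM the nearest were Mir208a (0.178), Mir1a-1 (0.227), Mir378a (0.243), Mir3102 (0.249) and Mir1a-2 (0.251). Their Pearson r with the miR-30 sum was 0.921 to 0.981 over the 6 libraries, in which all genes share scaling and depth. These genes were chosen for their closeness to this profile. Their high r and lower knockout levels therefore follow largely from the choice. The Mir1a genes are loci of the same miRNA and are not independent of each other. Mir208a is carried in an intron of the cardiac alpha myosin gene and Mir378a in the gene of a metabolic coactivator. Mir208a had 53.2, 61.8 and 51.2 CPM in the control libraries, against 39.8, 46.1 and 44.0 CPM in the knockout libraries, and like Mir30a it was lower in each knockout library without being called (log2 fold change -0.35, SE 0.18, adjusted p = 0.128). Mir378a fell from 13994 ± 672 to 9284 ± 1014 CPM (SD, n = 3), a change of -0.59 on the log2 scale (SE 0.13, adjusted p = 0.00215).

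**Figure D5:**
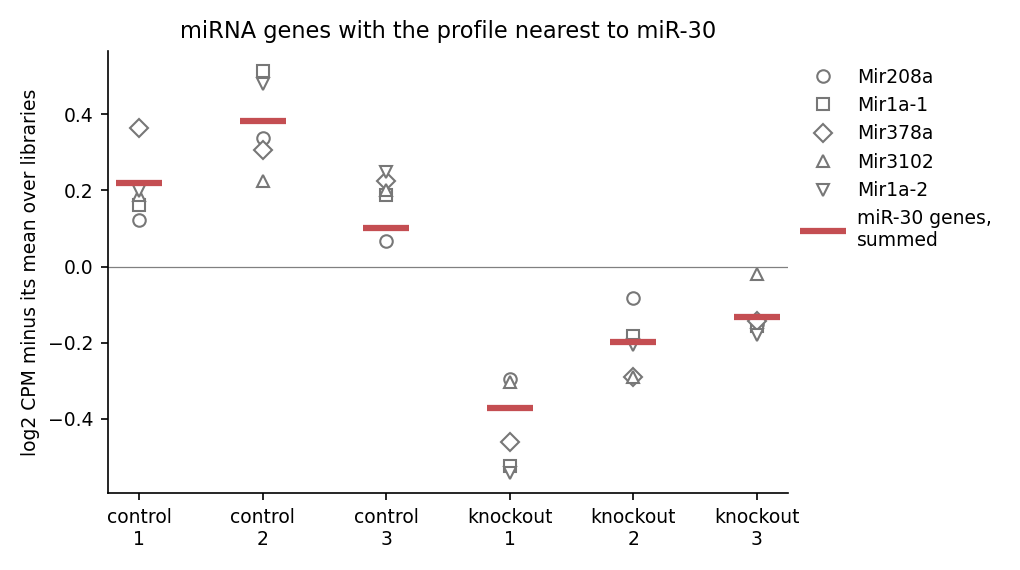
Log2 CPM minus its mean over the 6 libraries (y axis) for the summed miR-30 genes (red bars) and the 5 miRNA genes nearest to them (open symbols), by library (x axis). All control values lie above 0 and all knockout values below it, which the choice of the nearest genes favours.

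The authors' deposited table gave Mir30e a log2 fold change of -0.86 (adjusted p = 2.19e-05) and Mir30c-1 -0.55 (adjusted p = 0.0136). For Mir30a it gave -0.27 (adjusted p = 0.267) and for Mir30b 0.26 (adjusted p = 0.495). It called 20.6% of its 2597 features with an adjusted p lower, and it gives no fold change for Mir30c-2 and Mir30d.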

How the data were processed

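Small RNA was sequenced from whole hearts of 3 control and 3 knockout mice (inserts of 15 to 100 nt; the design text states 4 technical replicates per mouse but not how they were merged). The authors deposited raw counts per feature, together with their own log2 fold changes and p-values, per the file headers. The tools were cutadapt 1.14, Bowtie2 2.2.9 on mm10, featureCounts 1.5.1 with DESeq2 1.16.1, per the submitters' processing notes. The sources used here do not give the annotation, the strand setting or how reads with several alignments were treated.

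Groups came from the sample titles. Features passing edgeR's filterByExpr (minimum count 10, minimum total 15) numbered 1144. They were fitted in edgeR 4.0.16 under R 4.3.3 (TMM factors, glmQLFit, glmQLFTest on group alone), and every adjusted p is from this fit unless stated. Standard errors are the fold change divided by the square root of the F statistic. The fit was tried on simulated data with equal numbers of features raised and lowered, which does not test the choice of scaling. DESeq2 1.42.0, other scalings, no filter, a replicate block and each library left out were tried. Log2 CPM used a prior count of 2. Ratios of raw counts were compared by exact permutation (SciPy 1.17.1). The edgeR p-values set group differences against the spread between these mice, estimated with information shared over the features. Exact permutation p-values set differences in ratio against regroupings of the same libraries.

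Positions came from GENCODE M21, in which 29738 of 29863 Ensembl IDs were found. Overlaps used gene models whose versioned ID is in both. There were 0 columns of other samples, and no 2 libraries agreed within sampling noise (lowest chi-square per degree of freedom 98.2). Named genes were the members, genes with the miR-30 seed, genes overlapping a member, the 5 nearest profiles and the 2 most abundant tested genes of each marker list, and others in the marker lists were named after their values were seen. The members and lists were chosen with earlier results of these data known.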

Additional observations from a re-analysis of the deposited data

How the results depend on the processing

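Scaling and filtering moved the calls more than the choice of test. With total counts alone Mir30a was called (log2 fold change -0.66) and Mir30b turned to -0.12. With factors from snoRNA and scaRNA genes they had -1.15, called, and -0.61, and with factors from miRNA genes Mir30a had -0.51, called. Of all 1144 features, 309 were called lower as reported, 432 with total counts, 659 with snoRNA factors and 356 with miRNA factors. With factors from snRNA and rRNA genes Mir30a turned to 0.25, and Mir30c-1 (-0.0237) and Mir30e (-0.35) lost their calls. Without a filter on low counts Mir30a turned to 0.0483, Mir30b was called at 0.60, and Mir30c-1 (-0.22) and Mir30e (-0.55) lost their calls, and 1141 of 9254 features were called in place of 574 of 1144. The share of higher calls over all features was 46.2% as reported, 28.2% with total counts, 34.8% with miRNA factors, 13.3% with snoRNA factors and 64.6% with snRNA and rRNA factors. Leaving out 1 library at a time gave 486 to 908 calls, the most without control replicate 1. Log2 fold changes then ranged from -0.42 to -0.0022 for Mir30a, 0.0240 to 0.61 for Mir30b, -0.69 to -0.29 for Mir30c-1 and -0.99 to -0.63 for Mir30e. The cause of these changes was not tested. Ratios between members kept their direction with each library left out and with 0.5 added to each count, while summing the miR-30c loci could change nothing, as Mir30c-2 is at 0. The share of miRNA counts held by the miR-30 genes with counts changed by -0.907 percentage points. It changed by -1.29 with Mir1a-1, the most abundant other miRNA gene, out of the total. With ID versions ignored, all but 2 miRNA genes inside a same-strand exon (98.1%) were at 0, an alternative chosen after seeing the data. No pairing of mice by the replicate numbers in the titles was seen (r of -0.13, -0.016 and -0.19 between deviations of same-numbered libraries). Differently numbered libraries gave -0.053 to 0.17, and such correlations cannot exclude a pairing. With a replicate block 536 features were called, and Mir30a (-0.31), Mir30b (0.29), Mir30c-1 (-0.58) and Mir30e (-0.90) kept their calls or lack of one.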

Other observations

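The 92 miRNA genes at 0 inside a same-strand exon, which were looked at after the zeros of Mir30c-2 and Mir30d had been seen, also include Mir22, Mirlet7i, Mir29c, Mir101a and Mir155, and 6 genes of the miR-17 to miR-92 cluster (Mir17, Mir18, Mir19a, Mir20a, Mir19b-1 and Mir92-1). For these, as for Mir30c-2 and Mir30d, the table gives no level in either group.

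Several genes that share a mature miRNA had similar counts. Of 8 pairs of miRNA genes with a shared mature name, no overlap with another feature and at least 600 counts each, the larger count was 1.01 to 2.70 times the smaller, with a median of 1.05. Pairs with a gene below 600 counts or overlapped by another feature were left out, so the similarity is in part set by this choice. Mir26a-1 held 392832 counts and Mir26a-2 held 397596, while Mir128-1 held 62379 and Mir128-2 held 23126. Mir30c-1 and Mir30c-2, which also share a mature arm, held 236604 and 0 counts. They could not have entered the list, as Mir30c-2 is at 0 and lies inside an exon of another counted feature. What share of the miR-30c-5p reads was placed at Mir30c-2 was not tested.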
